A study of Mus musculus with 35 samples.

Results

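A set of 8 adhesion genes of CD8 T cells was examined across all 35 libraries of the study: the integrin alpha subunits Itgae, Itga1, Itga4 and Itgal, the integrin beta subunits Itgb1, Itgb2 and Itgb7, and Selplg, which encodes the selectin ligand PSGL-1. They were picked by gene symbol, and each of the 8 symbols matched 1 of the 38924 genes in the count table. Every library held total RNA of CD8 T cells of C57BL/6 mice, sorted as CD3e+, CD8+, CD44 high and CD62L low, the surface phenotype of antigen-experienced T cells. Cells labelled as stimulated were held for 2 h with PMA, a phorbol ester, and ionomycin, a calcium ionophore, a pair that bypasses the T cell receptor to activate the cell. How unstimulated cells were held meanwhile is not given in the sources used here. Stimulated brain cells came from aged females (n = 5) and aged males (n = 4), and unstimulated brain cells from aged females (n = 5), aged males (n = 6) and young males (n = 5). Spleen cells came from aged males only, stimulated (n = 5) or unstimulated (n = 5). Ages are labelled only as aged or young, and the labels do not say whether the libraries of a group are different animals. The spread behind each p-value is that of these libraries, and it may be technical.

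Integrins are heterodimers of an alpha and a beta chain that bind cells and matrix when signals from inside the cell open them. Itgae (CD103) pairs with Itgb7 and binds E-cadherin, and Itga1 (CD49a) pairs with Itgb1 and binds collagen; both are surface markers of CD8 T cells that stay in tissues. Itga4 (CD49d) pairs with Itgb1 to bind VCAM-1, or with Itgb7 to bind MAdCAM-1. Itgal (CD11a) and Itgb2 (CD18) form LFA-1, the receptor for ICAM-1. PSGL-1 carries the sugars that selectins bind, which lets T cells roll on vessel walls.

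On the GENCODE M21 annotation of GRCm38, Itgae lies at chr11:73090583-73147446, Itga1 at chr13:114953096-115101964, Itga4 at chr2:79255426-79333123 and Itgal at chr7:127296260-127335138. Itgb1 lies at chr8:128685654-128733200, Itgb2 at chr10:77530252-77565708, Itgb7 at chr15:102215995-102231944 and Selplg at chr5:113818536-113832644. Itga1, Itgb7 and Selplg are on the minus strand and the others on the plus strand. Counts cover whole genes, so they do not separate exons or isoforms.

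The stimulated brain libraries stood apart from the rest. Their totals were 1.16 to 9.20 M counts, and 38.5% to 69.7% of their counts came from mitochondrially encoded genes, against 8.28% to 20.8% in the other 26 libraries. Between 2271 and 6769 genes had a count in stimulated brain libraries, against 6456 to 12706 in unstimulated brain and 13729 to 15174 in spleen libraries. The 7 CD8 T cell markers Cd3e, Cd3d, Cd3g, Cd8a, Cd8b1, Cd2 and Cd247 all had counts in every group. Levels are given as CPM, a gene's counts relative to its library total after TMM scaling, edgeR's correction for library composition. The summed level of these markers was 108 to 438 CPM in stimulated aged male brain, 538 to 2005 CPM in stimulated aged female brain, 1817 to 4932 CPM in unstimulated brain and 1035 to 1963 CPM in spleen. Cd44, used in the sort, was at 0 in 3 of the 4 stimulated aged male brain libraries and in 2 of the 5 stimulated aged female ones. Every result on stimulated brain cells rests on these libraries, and fewer T cells and less RNA per cell cannot be told apart in them or in any other bulk sample here.

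The order of the 8 genes per length was read from the authors' TPM, which divides by transcript length. In unstimulated aged male brain, Itgb1 had the highest mean level at 282 ± 151 TPM, followed by Itgb2 at 196 ± 44.4 TPM and Itga4 at 193 ± 19.7 TPM (SD, n = 6). Selplg had 114 ± 21.9 TPM, Itgal 84.8 ± 13.8 TPM and Itgb7 38.6 ± 21.3 TPM there. Itga1, at 13.3 ± 9.23 TPM, and Itgae, at 11.9 ± 18.6 TPM, were lowest. The first 3, the pair of Selplg and Itgal, and the pair of Itga1 and Itgae did not differ among themselves beyond their spread. Unstimulated aged male spleen cells put Itga4 first at 306 ± 21.2 TPM, with Itgb2 at 234 ± 48.5 TPM and Itgb1 at 199 ± 34.8 TPM (SD, n = 5). Itgal, at 127 ± 20.7 TPM, Selplg, at 106 ± 9.96 TPM, and Itgb7, at 49.7 ± 11.7 TPM, followed. Itga1, at 7.79 ± 9.95 TPM, and Itgae, at 7.11 ± 2.42 TPM, were again lowest and overlapped. The same pair was lowest in every male group, while in unstimulated aged female brain Itga1, at 56.8 ± 50.6 TPM, stood above Itgb7, at 47.3 ± 10.3 TPM, and within its spread (SD, n = 5).

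**Figure D1:**
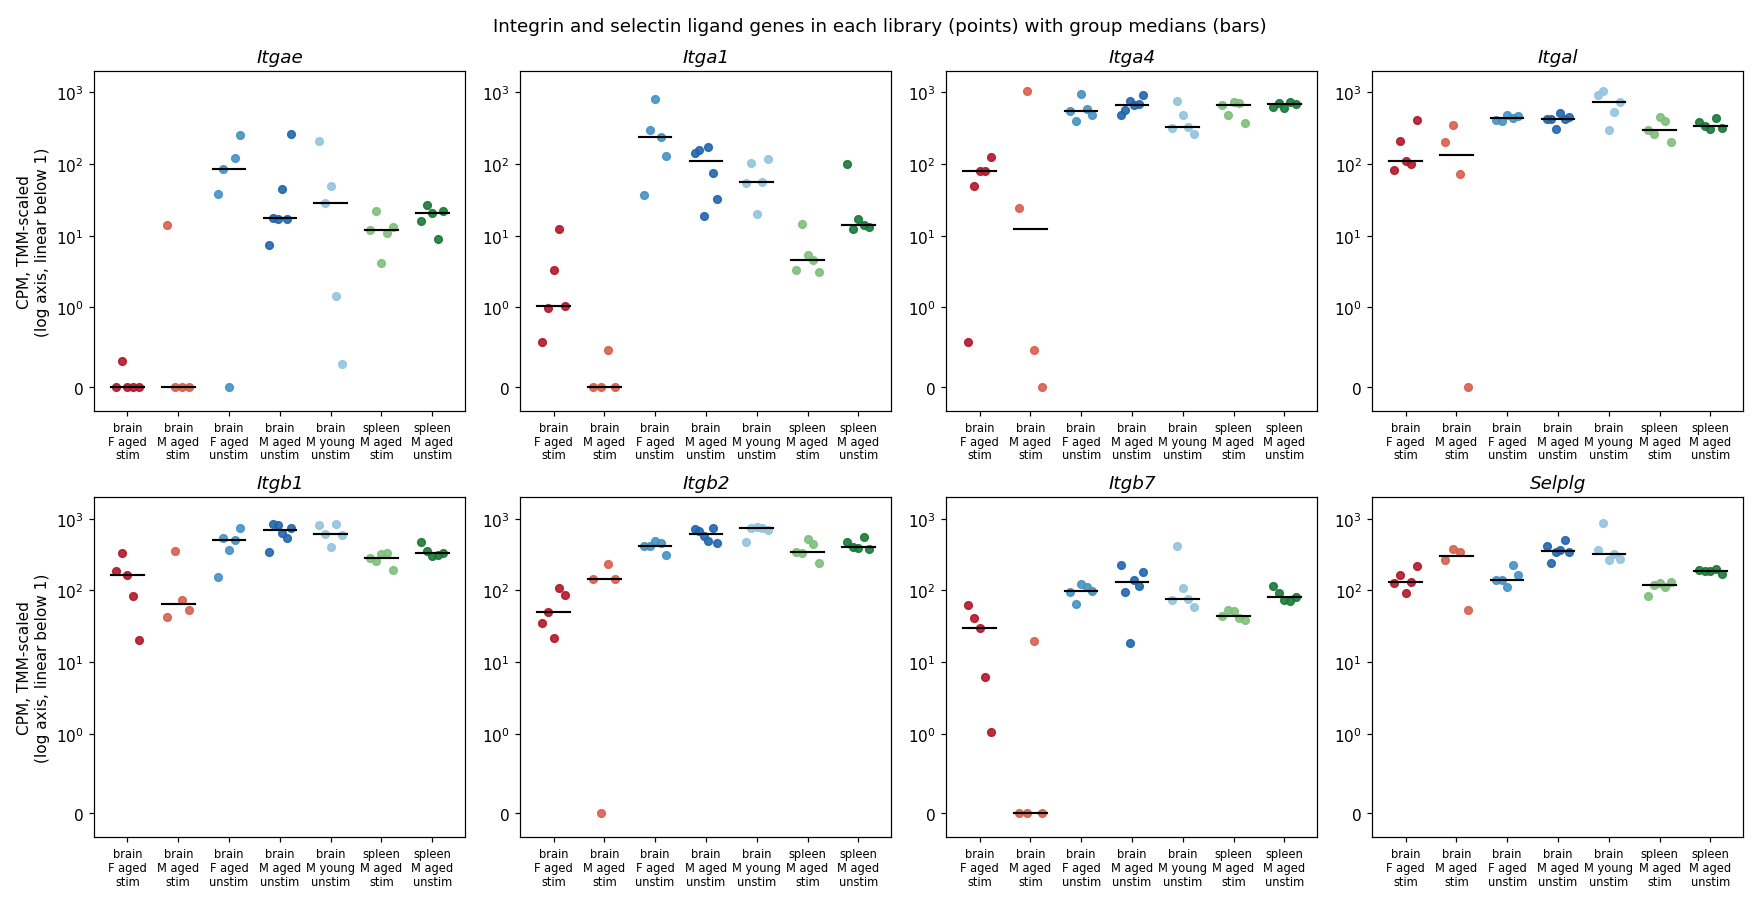
Level of each of the 8 genes in every library by group, as CPM on TMM-scaled totals, on a log axis that is linear below 1; points are libraries and bars group medians. Itgae and Itga1 scatter widely between libraries of the same brain group, from 0 to 258.6 CPM for Itgae in unstimulated aged female brain, and sit at or near 0 in most stimulated brain libraries.

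Itgae differed more between libraries of a brain group than between the brain groups. In unstimulated aged female brain it had 38.9, 85.5, 0, 123.1 and 258.6 CPM. In unstimulated aged male brain the lowest library had 7.55, the median was 17.5 and the highest had 263.75 CPM. In unstimulated young male brain it had 207.1, 28.7, 49.3, 1.44 and 0.287 CPM. Single libraries carried the male means: without its highest library the aged male mean was 20.9 CPM and the young male mean 19.9 CPM. Spleen libraries were closer together, with 12.2, 21.9, 4.19, 11.005 and 13.3 CPM stimulated, against 16.3, 26.9, 20.5, 9.16 and 22.1 CPM unstimulated.

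In spleen, 3 of the 8 genes were called lower after stimulation: Itgb7, Selplg and, in a call that several single libraries each decided, Itga1. The other 5 had negative fold changes that did not pass the test, so no member was called higher. Of 11107 genes tested with edgeR's quasi-likelihood test at an adjusted p of 0.05, 6.12% were called lower and 12.6% higher. The median log2 fold change was -0.51 over the 8 genes and -0.07 over all genes tested.

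Itgb7, the shared beta chain of the E-cadherin and MAdCAM-1 receptors, had 43.6, 53.2, 51.0, 41.4 and 38.5 CPM in stimulated spleen libraries, against 116.8, 93.1, 74.2, 71.8 and 81.6 CPM in unstimulated ones. All 5 stimulated libraries lay below all 5 unstimulated libraries. The log2 fold change was -0.98 ± 0.16 (SE; edgeR adjusted p = 0.0011). Selplg had 84.2, 117.1, 128.1, 113.2 and 130.0 CPM in stimulated spleen, against 194.1, 187.9, 187.9, 198.9 and 168.3 CPM in unstimulated spleen. These groups did not overlap either, and the log2 fold change was -0.74 ± 0.13 (SE; edgeR adjusted p = 0.0018). The share of all genes that separate the spleen groups was not counted, so the lack of overlap only describes the values. Both calls held when any 1 spleen library was left out, and with DESeq2 and limma voom.

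Itga1, the collagen receptor subunit, had 3.29, 14.6, 5.44, 4.64 and 3.16 CPM in stimulated spleen, against 100.45, 12.4, 17.2, 14.3 and 13.3 CPM in unstimulated spleen. Replicate 30 held by far the highest unstimulated value, and the groups overlapped through stimulated replicate 37. The log2 fold change was -2.37 ± 0.69 (SE; edgeR adjusted p = 0.033). Without unstimulated replicate 30 it was -1.24 and no longer passed (adjusted p = 0.082), and it also missed the threshold without stimulated replicate 36, 38, 39 or 40 (adjusted p 0.0693 to 0.11), with limma voom (adjusted p = 0.186), without a count filter (adjusted p = 0.113) and in the fit of all 35 libraries (adjusted p = 1.0). DESeq2 gave it no adjusted p.

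The remaining integrin genes moved less in spleen. Itga4 had a log2 fold change of -0.21 ± 0.17, Itgal of -0.19 ± 0.19 and Itgb2 of -0.27 ± 0.19 (SE; edgeR adjusted p 0.42, 0.54 and 0.35 in that order). Itgb1 had -0.39 ± 0.16 (edgeR adjusted p = 0.13) and Itgae -0.63 ± 0.38 (edgeR adjusted p = 0.29). For Itga4 the 95% interval of the log2 fold change was -0.54 to 0.12, and for Itgal -0.57 to 0.18.

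How many members passed depended on the scaling of the libraries. The TMM factors were 0.906 to 1.118 in stimulated and 1.63 to 1.76 in unstimulated spleen. On unscaled totals the median of all genes was -0.73, 39.4% of all genes were called lower, and so were all 8 members, with log2 fold changes between -0.83 for Itgal and -3.04 for Itga1. In 1 fit of all 35 libraries none of the 8 passed. The 7 CD8 T cell markers summed to 1035 to 1963 CPM in stimulated and 1532 to 1910 CPM in unstimulated spleen, and none of the 7 was called. Markers of macrophages summed to 25.4 to 66.5 CPM in stimulated and 77.4 to 106.7 CPM in unstimulated spleen, with 1 of 7 tested called lower. B cell markers summed to 160.2 to 350.9 CPM in stimulated and 127.6 to 412.4 CPM in unstimulated spleen, with 3 of 5 called higher. The share of mitochondrial counts was 14.8% to 20.8% in stimulated and 10.8% to 13.3% in unstimulated spleen. The part of other cells and of mitochondrial RNA in the result was not tested.

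**Figure D2:**
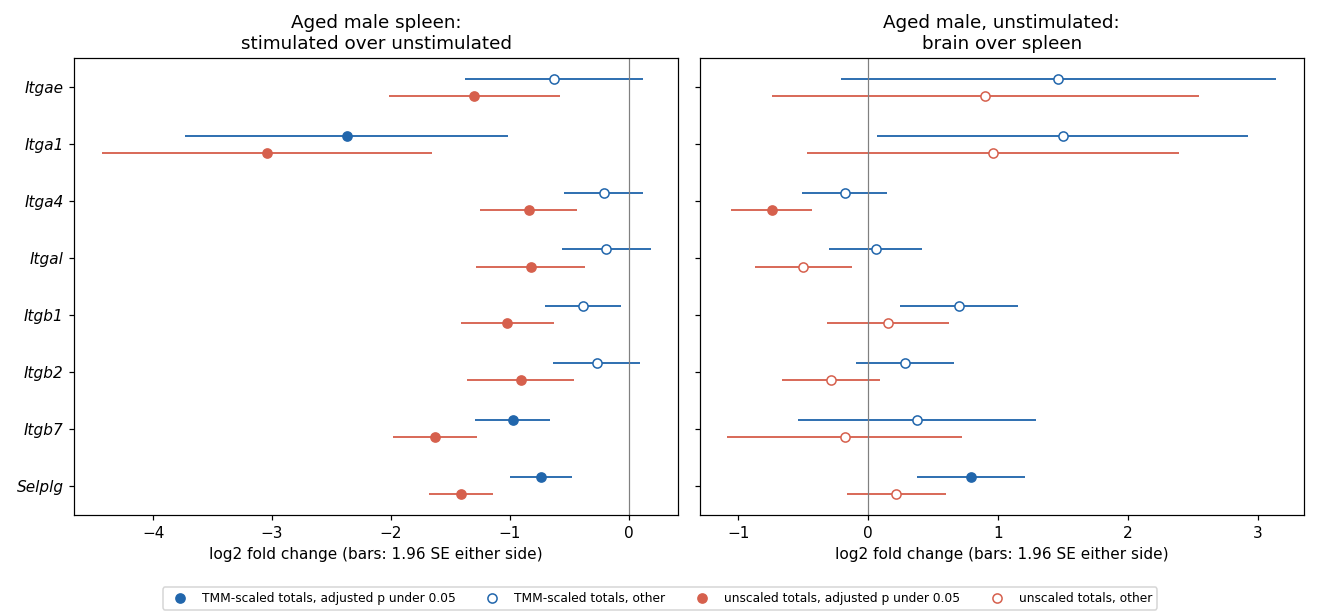
Log2 fold change of the 8 genes for stimulated over unstimulated aged male spleen (left) and for unstimulated aged male brain over spleen (right), on TMM-scaled and on unscaled totals; bars are 95% intervals and filled points have an adjusted p under 0.05. Without the scaling all 8 points move left, as does the median of all genes, which was -0.07 with TMM and -0.73 without it in spleen.

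Among the 3 genes called lower in stimulated spleen, Itga1 and Itgb7 have a promoter in the RefSeq table used here (GRCm38.p6, 250 bases before to 50 after the gene start), and both are shown because their transcripts fell in the same comparison. The Itga1 window is chr13:115101915-115102214 and the Itgb7 window chr15:102231886-102232185, both on the minus strand. Capitals mark matches on either strand to 4 motifs searched as plain letters: TGTGGT for RUNX factors, GGAAGT for ETS factors, GGGCGG for KLF and SP factors, and CAGAC for SMAD proteins.
Itga1: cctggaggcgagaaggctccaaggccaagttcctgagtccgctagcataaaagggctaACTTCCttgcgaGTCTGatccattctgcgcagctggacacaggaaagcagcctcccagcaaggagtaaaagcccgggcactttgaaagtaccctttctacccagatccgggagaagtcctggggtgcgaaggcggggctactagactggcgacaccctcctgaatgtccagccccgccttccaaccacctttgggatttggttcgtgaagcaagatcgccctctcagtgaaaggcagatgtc
Itgb7: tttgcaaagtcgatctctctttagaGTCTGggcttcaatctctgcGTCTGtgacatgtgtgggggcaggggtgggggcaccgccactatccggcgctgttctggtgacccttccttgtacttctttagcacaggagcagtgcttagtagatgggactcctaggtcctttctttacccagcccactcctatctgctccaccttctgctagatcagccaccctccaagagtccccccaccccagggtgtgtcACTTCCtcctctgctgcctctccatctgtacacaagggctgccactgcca
Each window holds 1 match to the ETS letters, with 1 SMAD match in Itga1 and 2 in Itgb7, and no match overlaps another. Of 32851 promoters of the same length, 16.76% hold the RUNX letters, 23.77% the ETS letters, 35.66% the KLF and SP letters and 49.59% the SMAD letters. The other promoters found, those of Itga4 and Itgb1, hold no ETS match. Itga4 has 1 RUNX, 1 KLF and SP, and 1 SMAD match, and Itgb1 has 1 KLF and SP and 3 SMAD matches. A match to these letters describes the window and does not show binding.

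Between tissues, unstimulated aged male brain cells held more Selplg than spleen cells, and no other member passed the test. The lowest brain library had 244.0, the median was 356.8 and the highest had 501.0 CPM of Selplg, against 194.1, 187.9, 187.9, 198.9 and 168.3 CPM in spleen. The groups did not overlap, though the share of all genes without overlap was not counted. The log2 fold change was 0.79 ± 0.21 (SE; edgeR adjusted p = 0.03). Of 11040 genes tested, 7.37% were called, 3.35% higher and 4.02% lower in brain. The call was lost without any 1 of the 5 spleen libraries (adjusted p 0.0754 to 0.107), and on unscaled totals the log2 fold change of Selplg was 0.22 (adjusted p = 0.76). The authors' TPM of Selplg overlapped too, at 82.7 to 142.5 in brain and 90.8 to 117.6 in spleen.

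The alpha subunits of tissue residence had higher means in brain without passing the test. Itga1 had a lowest value of 18.9, a median of 109.9 and a highest value of 175.0 CPM in brain, against 100.45, 12.4, 17.2, 14.3 and 13.3 CPM in spleen. All brain libraries exceeded the 4 low spleen libraries, and 3 of the 6 fell below spleen replicate 30. The log2 fold change was 1.497 ± 0.73 (SE; edgeR adjusted p = 0.33), and without spleen replicate 30 it was 2.63 and passed (adjusted p = 0.033). Itgae had a log2 fold change of 1.46 ± 0.86 (SE; edgeR adjusted p = 0.46), and it was -0.059 without brain replicate 9.

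Itgb1, the partner of Itga1 and Itga4, averaged 655 ± 189 CPM in brain (n = 6) and 353 ± 67.9 CPM in spleen (n = 5). Its log2 fold change was 0.70 ± 0.23 (SE; edgeR adjusted p = 0.094), and it passed at 0.83 without brain replicate 10 (adjusted p = 0.015). Itga4, Itgal, Itgb2 and Itgb7 lay between -0.18 and 0.37 in log2 fold change, with edgeR adjusted p between 0.56 and 0.93. On unscaled totals, where the median of all genes was -0.24 in place of 0.31, Itga4 was called lower in brain at -0.74 (adjusted p = 0.008), as were 4.67% of all genes, and Itgal, Itgb2 and Itgb7 turned negative.

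The marker lists also moved between these tissues. CD8 T cell markers summed to 2883 to 4729 CPM in brain and 1532 to 1910 CPM in spleen, and 3 of the 7 were called higher. B cell markers summed to 0.38 to 27.9 CPM in brain, with Cd79a at 0, and to 127.6 to 412.4 CPM in spleen. Markers of microglia and macrophages, which also express Itgb2, summed to 21.6 to 501.6 CPM in brain, with Aif1 at 0, and to 77.4 to 106.7 CPM in spleen. Markers of choroid plexus, neurons and glia summed to 151.9 to 895.4 CPM in brain and 55.0 to 78.7 CPM in spleen, with Gfap at 0 in spleen. These ranges did not overlap, and 1 of the 4 tested, the choroid plexus gene Ttr, was called higher. Their part in the differences between tissues was not tested.

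Partner genes were then set against each other within each library as shares of summed TPM, with no test. The share of Itgb7 in Itgb7 plus Itgb1 was 12.6% ± 2.72 in stimulated spleen, with a range of 10.4% to 17.2%, and 19.9% ± 1.54 in unstimulated spleen, with a range of 17.7% to 21.9% (SD, n = 5 each). These ranges did not overlap. In unstimulated brain the same share was 16.4% ± 13.7 in aged females, 14.2% ± 11.4 in aged males and 12.1% ± 7.81 in young males, so the groups overlapped widely.

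Itga1 made up 17.3% ± 8.50 of Itga1 plus Itga4 in unstimulated aged female brain (n = 5), 6.58% ± 4.71 in aged male brain (n = 6) and 6.95% ± 4.09 in young male brain (n = 5). In spleen it was 0.556% ± 0.526 stimulated and 2.48% ± 3.16 unstimulated (SD, n = 5 each). Itgae made up 14.8% ± 17.2 of Itgae plus Itga4 in unstimulated aged female brain, 5.24% ± 7.5 in aged male brain and 8.62% ± 14.9 in young male brain. Spleen shares of Itgae were 1.80% ± 1.26 stimulated and 2.28% ± 0.74 unstimulated. Of the 5 female brain libraries, 4 had a higher Itga1 share of TPM than every unstimulated male brain library, and 2 did as a share of counts, while the Itgae shares had SDs above their means and overlapped. In stimulated brain the shares rest on few counts and are not compared.

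**Figure D3:**
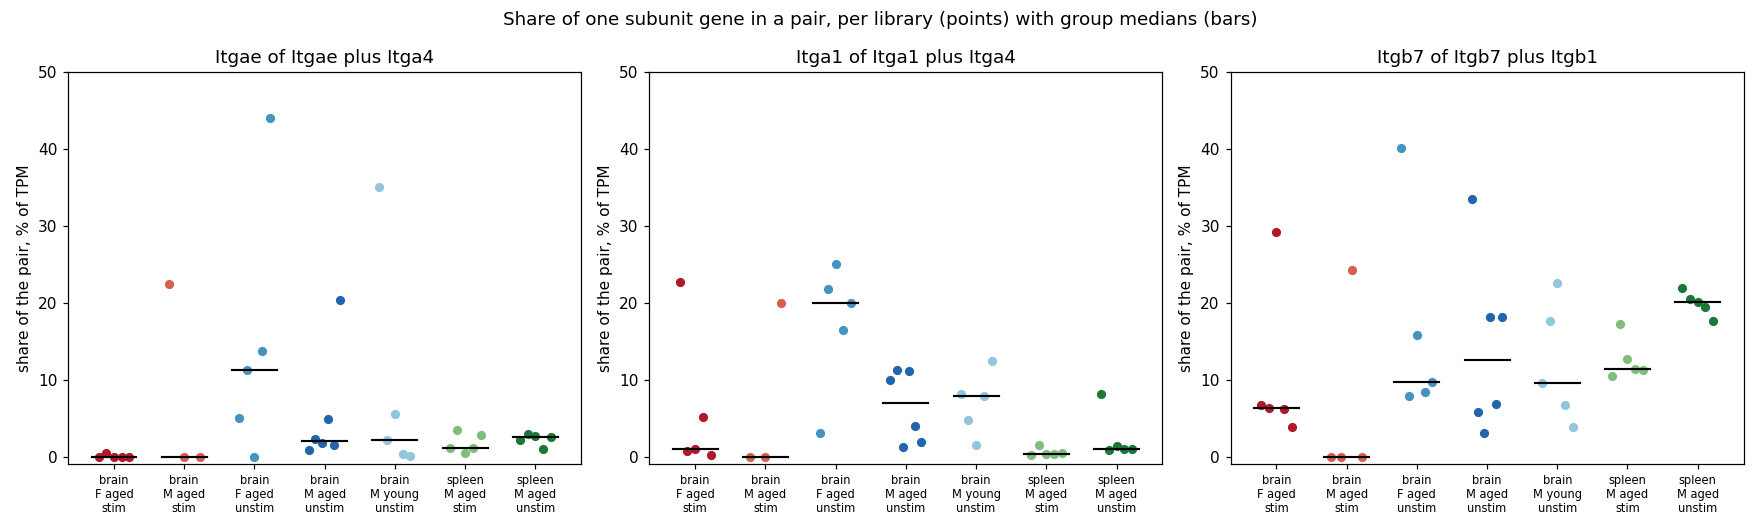
Share of Itgae in Itgae plus Itga4, of Itga1 in Itga1 plus Itga4, and of Itgb7 in Itgb7 plus Itgb1, in percent of summed TPM per library; points are libraries and bars group medians. The Itgb7 share of all 5 stimulated spleen libraries (10.4% to 17.2%) lies below that of all 5 unstimulated ones (17.7% to 21.9%).

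No difference with age passed the test in unstimulated male brain. None of the 8 members was among the calls, since 0% of 8068 genes tested passed; 374 genes had an unadjusted p under 0.05, DESeq2 called 72 and limma voom 0. Itga4 had a lowest value of 488.8, a median of 678.4 and a highest of 927.6 CPM in aged libraries, against 314.9, 756.4, 481.7, 324.4 and 261.2 CPM in young ones. The log2 fold change was 0.71 ± 0.32 (SE; edgeR adjusted p = 0.99), and all 6 aged libraries exceeded 4 of the 5 young ones. Itgal, the LFA-1 alpha chain, ran the other way at -0.70 ± 0.32, with 312.6 to 518.0 CPM in aged and 296.0 to 1059.8 CPM in young libraries (edgeR adjusted p = 0.99). Itga1 had a log2 fold change of 0.54 ± 0.77 and Itgae of 0.15 ± 1.25, the second with a 95% interval of -2.29 to 2.59. Itgb1, Itgb2, Itgb7 and Selplg lay within their SE of 0. Young replicate 3 held the highest Itgal, Itga4, Itgb7 and Selplg values of its group.

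No member differed by sex in unstimulated aged brain at the adjusted threshold, where 0.15% of 8691 genes passed, all lower in females. Selplg came closest. It had 139.4, 140.9, 112.7, 226.5 and 163.2 CPM in females, against a lowest value of 244.0, a median of 356.8 and a highest of 501.0 CPM in males. The groups did not overlap in CPM, though the share of all genes without overlap was not counted. The log2 fold change was -1.09 ± 0.32 (SE; edgeR adjusted p = 0.50). The authors' TPM of Selplg overlapped, at 46.2 to 112.4 in females and 82.7 to 142.5 in males. Itga1 pointed the other way, with 37.2, 297.5, 818.6, 242.3 and 129.95 CPM in females, against a lowest value of 18.9, a median of 109.9 and a highest of 175.0 CPM in males. Of the 5 female libraries, 3 exceeded every male library, and the log2 fold change was 1.72 ± 0.68 (SE; edgeR adjusted p = 1.0).

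Itgb2 had a log2 fold change of -0.40 ± 0.25 and Itgae of 0.93 ± 1.17 (SE; edgeR adjusted p = 1.0 for both), and the other 4 integrin genes had unadjusted p between 0.33 and 0.87. The CD8 T cell markers summed to 1817 to 2958 CPM in females and 2883 to 4729 CPM in males, and none of the 7 was called. TMM factors were 1.24 to 1.51 in female and 0.827 to 1.098 in male libraries, and the median of all genes was -0.28. Their part in the Selplg and Itga1 differences was not tested.

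In stimulated brain cells, Itgae and Itga1 were at or close to 0 in most libraries, while Selplg and Itgb1 had counts in all 9. In aged males Itga1 was the member called lower, but it entered the test through the unstimulated libraries alone, and with at least 10 counts in every library 2 members could be tested and 0 were called. It was a comparison where 36.4% of 7540 genes were called lower and 1.75% higher. The median log2 fold change was -2.14 over the 8 genes and -2.62 over all genes tested. The 7 CD8 T cell markers summed to 108 to 438 CPM in stimulated and 2883 to 4729 CPM in unstimulated libraries, and 5 of the 7 were called lower, with a median log2 fold change of -4.05. Markers of choroid plexus, neurons and glia summed to 92.1 to 1375 CPM in stimulated libraries, with Snap25 and Gfap at 0, and to 151.9 to 895.4 CPM in unstimulated ones. Microglia and macrophage markers summed to 0 to 4.76 CPM in stimulated libraries, with 7 of 10 at 0, and to 21.6 to 501.6 CPM in unstimulated ones. The part of T cell content, other cells and mitochondrial RNA in these differences was not tested.

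Itga1 had 1 count in the 4 stimulated male libraries together and 12438 counts in the 6 unstimulated ones. Relative to the summed totals this is a ratio of 0.00065, with a 95% interval of 1.6e-05 to 0.0036 that covers counting error only. The fitted log2 fold change was -9.59 ± 2.05 (SE; edgeR adjusted p = 0.0055), whose size depends on the prior count. Itga1 was also the member called in the test of the difference between brain and spleen responses (edgeR adjusted p = 0.0011; limma voom 0.196). That call rests on the same count of 1, the fitted size depends on the prior count, and the gene could not be tested with at least 10 counts in every library. In that test 35.7% of 12117 genes were called lower and 2.1% higher, and the median was -4.04.

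Single stimulated male libraries decided several other values. Itga4 had 24.6, 1046.5, 0.464 and 0 CPM in stimulated males, so that replicate 20 exceeded every unstimulated library, whose range was 488.8 to 927.6 CPM. Its log2 fold change was -1.26 ± 1.48 (SE; edgeR adjusted p = 0.56), against -6.31 without replicate 20 (adjusted p = 0.013). Itgb7 had counts only in replicate 21, at 19.5 CPM from 42 counts. Its log2 fold change was -4.58 ± 1.91 (SE; edgeR adjusted p = 0.069), and it passed without that replicate (adjusted p = 0.0071). Itgae had counts only in replicate 19, at 14.3 CPM from 75 counts. Its log2 fold change was -3.99 ± 1.93 (SE; edgeR adjusted p = 0.12), and it passed without that replicate (adjusted p = 0.012). Without those replicates the stimulated libraries held no counts of Itgb7 or of Itgae. Each gene then entered the test through the unstimulated libraries alone, so nothing is read from these passes.

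The beta chains fell short of the threshold in stimulated male brain. Itgb1 had 43.2, 355.8, 73.7 and 54.0 CPM in stimulated libraries, against 344.2 to 841.3 CPM in unstimulated ones. Its log2 fold change was -2.21 ± 0.98 (SE; edgeR adjusted p = 0.088), and it passed at -3.43 without replicate 20 (adjusted p = 0.025). Itgb2 had 142.4, 0, 236.1 and 142.1 CPM in stimulated libraries, all below the 461.9 to 741.7 CPM of the unstimulated ones, with a log2 fold change of -2.08 ± 1.24 (SE; edgeR adjusted p = 0.21). Its partner Itgal had 200.4, 355.4, 71.9 and 0 CPM in stimulated and 312.6 to 518.0 CPM in unstimulated libraries, with -1.38 ± 1.22 (SE; edgeR adjusted p = 0.42).

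Selplg had 264.0, 380.2, 340.9 and 53.0 CPM in stimulated males, against a lowest value of 244.0, a median of 356.8 and a highest of 501.0 CPM in unstimulated males. Of the 4 stimulated libraries, 3 lay within the unstimulated range, and the log2 fold change was -0.41 ± 0.92 (SE; edgeR adjusted p = 0.77). The number of members called lower was 7 with limma voom, 5 in 1 fit of all 35 libraries, 3 with DESeq2 and 2 on unscaled totals, and Selplg was in none of these. The shares of all genes called lower were 40.7%, 35%, 41.8% and 39.2% in that order.

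In aged females, Itga1 and Itgb2 were called lower, where 4.17% of 6305 genes were called lower and 1.92% higher. The log2 fold changes of all genes had a median of -0.41, and none of the 7 CD8 T cell markers was called, with a median of -1.30. Markers of choroid plexus, neurons and glia summed to 435 to 1000.0 CPM in stimulated and 41.2 to 300.4 CPM in unstimulated females, without overlap, and 2 of the 4 tested were called higher. The part of these other cells in the results was not tested. Itga1 had 0.564, 0.995, 3.35, 12.5 and 1.06 CPM in stimulated libraries, against 37.2, 297.5, 818.6, 242.3 and 129.95 CPM in unstimulated ones. The groups did not overlap, and the log2 fold change was -6.28 ± 1.33 (SE; edgeR adjusted p = 0.021). With 1 to 35 counts per stimulated library, it too entered the test through the unstimulated libraries. It missed the threshold without unstimulated replicate 14 or 16 (adjusted p 0.0596 and 0.0524).

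Itgb2 had 34.96, 49.7, 21.4, 109.3 and 85.1 CPM in stimulated females, against 411.9, 409.7, 495.9, 451.05 and 308.0 CPM in unstimulated females. The groups did not overlap, and the log2 fold change was -2.72 ± 0.73 (SE; edgeR adjusted p = 0.04). The call was lost without any 1 of the 5 unstimulated libraries or without stimulated replicate 24 or 25 (adjusted p 0.0562 to 0.11). Itga4 had 0.564, 49.7, 81.1, 81.0 and 127.6 CPM in stimulated females, against 550.7, 393.9, 959.35, 578.85 and 483.65 CPM in unstimulated females. It did not overlap either, with -3.10 ± 0.93 (SE; edgeR adjusted p = 0.068), and it passed without stimulated replicate 23 (adjusted p = 0.026). How many of all genes separate these groups was not counted, so the lack of overlap only describes the values.

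Itgae did not enter the test in females, since unstimulated replicate 15, at 0, left too few libraries with enough counts. Without replicate 15 it entered and was called lower, at a fitted -10.5 on the log2 scale (edgeR adjusted p = 0.018). It was also called lower without any 1 of the 5 stimulated libraries (edgeR adjusted p 0.041 to 0.049). Each time it entered through the unstimulated libraries alone. The 5 stimulated libraries held 1 count together, against 8768 counts in 5 unstimulated ones. The ratio relative to the summed totals was 0.000237, with a 95% interval of 6.0e-06 to 0.0013 for counting error only. Itgal had a log2 fold change of -1.21 ± 0.64 and Itgb1 of -1.46 ± 0.76 (SE; edgeR adjusted p = 0.40 for both). Itgb7 had 62.6, 40.8, 29.7, 6.09 and 1.06 CPM in stimulated females, all below the 64.8 to 122.2 CPM of unstimulated females, with -1.69 ± 1.18 (SE; edgeR adjusted p = 0.57). Selplg had 126.9, 165.4, 91.996, 129.7 and 222.3 CPM in stimulated females, against 139.4, 140.9, 112.7, 226.5 and 163.2 CPM in unstimulated females, and its log2 fold change was -0.02 ± 0.76 (SE; edgeR adjusted p = 0.99). On unscaled totals, where the median of all genes was -1.81, 7.72% of all genes and 5 members were called lower, and Selplg was not among them.

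**Figure D4:**
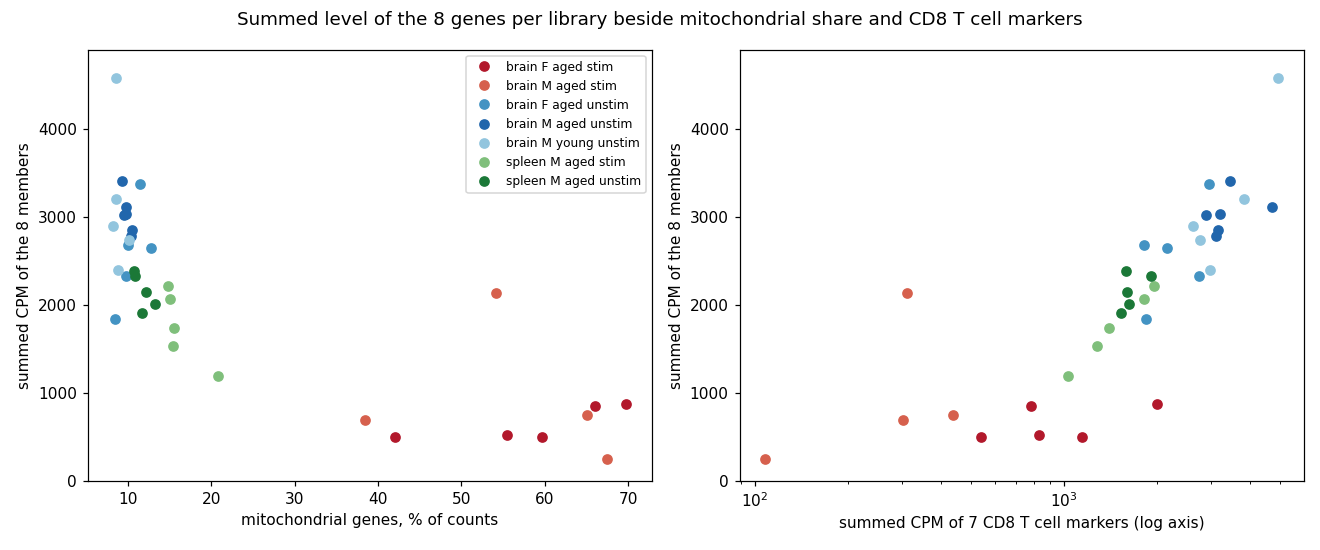
Summed CPM of the 8 genes in each library against the percentage of counts from mitochondrial genes (left) and against the summed CPM of the 7 CD8 T cell markers on a log axis (right); points are libraries, coloured by group. Stimulated male brain libraries hold 108 to 438 CPM of markers, less than every other library, and 249 to 2138 CPM of the 8 genes.

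The sexes were also compared after stimulation, and the responses of the tissues and sexes with each other. Between stimulated female and stimulated male brain cells, 0% of 3159 genes passed, with 158 at an unadjusted p under 0.05 and 90 called by DESeq2, and Itgae and Itga1 were too low to be tested. Between stimulated brain and stimulated spleen of aged males, 46.7% of 9135 genes were called lower and 1.82% higher, and Itga1 was the member called (edgeR adjusted p = 0.0019; limma voom 0.0617), having entered the test through spleen alone. That comparison sets 1 count in 4 brain libraries against 306 in 5 spleen libraries, a ratio of 0.0114 with a 95% interval of 0.00029 to 0.064. Selplg, at 1.37 ± 0.67 (SE; edgeR adjusted p = 0.13), had a positive log2 fold change and the other 6 members lay between -0.86 and -2.99.

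In the test of the difference between brain and spleen responses, Itgb7, at -3.74 ± 1.52, and Itgb1, at -1.95 ± 0.79, came next to Itga1 without passing (SE; edgeR adjusted p 0.057 and 0.056 in that order). Itgae had -3.37 ± 1.69 (SE; edgeR adjusted p = 0.12). These responses share their libraries with the comparisons within each tissue. No member passed the test of the difference between female and male responses, where 2.6% of 10026 genes did, 2.04% with a higher and 0.559% with a lower response in females. Itga1 had 3.35 ± 2.07 there and Itgae -6.34 ± 2.64 (SE; edgeR adjusted p 0.31 and 0.13 in that order), and the Itgae value was 1.93 without stimulated male replicate 19.

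Genes that act beside the 8 members were counted from lists of other integrin subunits, integrin activation and adaptor genes, genes that build the sugars of selectin ligands, ligands and counter-receptors, and TGF-beta signalling, which is known to induce Itgae in T cells. In stimulated spleen, 3 of the 10 TGF-beta genes tested were called higher and 1 lower, against 12.6% and 6.12% of all genes tested. Smad7, an inhibitor of the pathway, averaged 147 CPM in stimulated and 18.7 CPM in unstimulated spleen (log2 fold change 2.94, edgeR adjusted p = 2.4e-05). Skil, which encodes a repressor of SMAD proteins, averaged 350 CPM in stimulated and 41.3 CPM in unstimulated spleen (3.06, edgeR adjusted p = 4.4e-05). Tgfb1, the ligand, averaged 51.5 CPM in stimulated and 23.4 CPM in unstimulated spleen, a call lost on unscaled totals. Tgfbr2, a receptor chain, averaged 62.3 CPM in stimulated and 96.2 CPM in unstimulated spleen (-0.66, edgeR adjusted p = 0.0041). Itgae itself did not pass in that comparison.

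Of 11 listed ligands and counter-receptors, 6 could be tested in spleen. Icam1, the ligand of LFA-1, rose with stimulation to 274 CPM, against 24.6 CPM unstimulated (log2 fold change 3.46, edgeR adjusted p = 5.7e-05). Vcam1, the ligand of the Itga4 and Itgb1 pair, had 1.74 CPM in stimulated and 18.9 CPM in unstimulated spleen (-3.44, edgeR adjusted p = 0.011), and Icam2, another LFA-1 ligand, also fell (-1.28, edgeR adjusted p = 0.017). Markers of macrophages and B cells also moved in this comparison, as given above, and their part in these ligand changes was not tested. Of the 25 activation genes, 23 were tested, with Rap1b and Rasgrp1 called higher and Sipa1, Rapgef1 and Tln1 called lower. Tln1 encodes talin, which binds integrin beta tails, and averaged 368 CPM in stimulated and 523 CPM in unstimulated spleen (-0.54, edgeR adjusted p = 0.015). Rap1b, a small GTPase that activates integrins, and Rasgrp1, a diacylglycerol-responsive exchange factor, had log2 fold changes of 0.05 and -0.20 on unscaled totals, so these increases depend on the scaling. Of 19 other integrin subunits 8 were tested, with Itgav called higher at 0.76 (0.06 on unscaled totals), and none of the 8 glycosylation genes tested was called. On unscaled totals 16 activation genes were called lower and 0 higher, where 39.4% of all genes were lower, and in 1 fit of all 35 libraries no listed gene passed.

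Between unstimulated brain and spleen, 2 of 10 TGF-beta genes, 1 of 6 ligands and no activation or glycosylation gene were called higher in brain, against 3.35% of all genes tested. Skil averaged 272 CPM in brain and 41.3 CPM in spleen (log2 fold change 2.54, edgeR adjusted p = 0.00088). Tgfbr2 averaged 215 CPM in brain and 96.2 CPM in spleen (0.97, edgeR adjusted p = 0.016), a call lost on unscaled totals. Cdh1, which encodes the E-cadherin that the Itgae and Itgb7 pair binds, averaged 143 CPM in brain and 8.64 CPM in spleen (3.86, edgeR adjusted p = 9.5e-05), beside the higher choroid plexus, neuron and glia markers given above, whose part in it was not tested. Itgad, a partner of Itgb2, was at 0 in all 6 brain libraries and averaged 13.1 CPM in spleen. It was 1 of 2 other subunits called lower of the 11 tested, but it entered the test through spleen alone. With age and with sex in unstimulated brain, no gene of these lists was called. In stimulated male brain, where 36.4% of all genes tested were called lower, 5 of 22 activation genes, 3 of 5 ligands, 2 of 4 other subunits and 1 of 10 TGF-beta genes were called lower and none higher, so nothing is read from these counts. In stimulated female brain, 2 of 21 activation genes and 1 of 10 TGF-beta genes were called lower, against 4.17% of all genes tested.

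The genes most like each member were ranked by Pearson's r of log2(CPM + 1) over the 26 libraries outside stimulated brain, among 6203 genes with a mean of at least 10 CPM, as a description. Libraries share tissue, depth and scaling, so r also reflects these. Selplg tracked Tapbp, a peptide-loading chaperone (r = 0.86), Esyt1 (0.85) and Pfn1, an actin-binding protein (0.84). Itgb2 tracked Ucp2 (0.82), Cd3e, a chain of the T cell receptor complex (0.81), and Actb, an actin (0.80). Itgal and Itgb1 shared Tnfsf10, which encodes the death ligand TRAIL, as the nearest gene (0.80 and 0.77), followed by Tbc1d13 and Ppp2r1a (0.78 each) for Itgal and by Rasal3 (0.76) and Tgfbr2 (0.75) for Itgb1. Itgb7 tracked Prkacb (0.74) and Irf9 (0.72), and Itga4 tracked Trim30d (0.70), Tpr (0.69) and Itgav (0.66). Itga1 tracked Ccnd2 (0.73), Atp2a3 (0.72) and Slfn1 (0.71), and Itgae tracked Usp32 (0.76), Iffo2 (0.75) and Jakmip1 (0.71). Among the 8 themselves the highest r was 0.69 for Itgb2 with Selplg, followed by 0.61 for Itgb1 with Selplg. Itgae stayed between -0.32 with Itgb2 and 0.23 with Itgb1, so no other member, its partner Itgb7 included, came close to it by this measure.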

How the data were processed

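Per the submitters' processing notes, the authors used Bowtie2 2.2.0 for alignment and RSEM 1.2.12 for quantification on mm10. The annotation release is not given in the sources used here, nor is the strand setting. Per the file headers, RSEM's expected counts, TPM and effective gene lengths are what the authors deposited for each library. The deposited whole-series table of whole-number counts lies within 0.5 of those expected counts. All 35 columns were mapped to samples by title, and groups were read from the titles. RSEM divides reads among similar genes, and overlapping genes are uncertain where strand is not stated.

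The 8 genes and the gene lists were chosen with earlier results of these data known. Counts were tested in R 4.3.3 with edgeR 4.0.16 (filterByExpr with a minimum count of 10, TMM, glmQLFit with robust settings, glmQLFTest, two-sided), with only the compared groups in each fit. P-values were adjusted over all genes tested by the Benjamini-Hochberg method, and the threshold was 0.05. CPM uses 1 TMM scaling of all 35 libraries. Listed genes were named up to 3 per direction by adjusted p, with a mean of at least 5 CPM in a group. Alternatives were DESeq2 1.42.0 (size factors, and its own test), limma 3.58.1 voom with quality weights, other count filters, 1 fit of all 35 libraries, no mitochondrial genes, rounded expected counts of the sample files, and leaving out each library. Unscaled totals and a filter of 10 counts in every library were alternatives chosen after seeing the data. The tests were also run on simulated counts, drawn with the same spread in every group and few changed genes. That setting lacks the broad shift seen in stimulated brain, so the run does not vouch for those comparisons. Every pair of libraries within a group differed beyond counting noise (chi-square per degree of freedom of at least 13.0). With library totals between 1.16 and 24.97 M counts, the CPM worth of a single count varies widely. Overlap between groups was read for the 8 members only, and the share of all genes without overlap was not counted in any comparison. Intervals of count ratios cover counting error only. Those of log2 fold changes are approximate and come from the SE of the fit, which holds the spread between libraries. Tables and figures were made in Python 3.11.15 (numpy 2.4.6, matplotlib 3.10.9, pandas 2.3.3 and scipy 1.17.1). Values of some single genes that the naming rules select are not reported here.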

Additional observations from a re-analysis of the deposited data

Results flagged for a closer look

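Within groups of 4 to 6 libraries, 12 values of a gene, held by 9 libraries, stood apart from the rest of their group, by the gap to the nearest library divided by the range of the group (Dixon's 95% value); 54 pairs of a gene and a group were examined, and chance alone gives about 1 in 20. For Itgae these were the highest libraries of 3 groups: stimulated aged male brain replicate 19 at 14.3 CPM, unstimulated aged male brain replicate 9 at 263.75 CPM and unstimulated young male brain replicate 2 at 207.1 CPM. For Itga1 they were stimulated aged female brain replicate 26 at 12.5 CPM, stimulated spleen replicate 37 at 14.6 CPM and unstimulated spleen replicate 30 at 100.45 CPM. In stimulated aged male brain, replicate 20 stood apart for Itga4 at 1046.5 CPM and for Itgb1 at 355.8 CPM, and replicate 21 for Itgb7 at 19.5 CPM. In unstimulated young male brain, replicate 3 stood apart for Itgb7 at 410.4 CPM and for Selplg at 876.9 CPM, and replicate 2 was low for Itgb2 at 467.15 CPM.

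Itga1 was called in the test of the difference between the brain and spleen responses of aged males, where 35.7% of 12117 genes were called lower. The fitted difference was -7.40 on the log2 scale (edgeR adjusted p = 0.0011; limma voom 0.196), a size that depends on the prior count. The Itga1 values behind it are 1 count in 4 stimulated and 12438 counts in 6 unstimulated brain libraries. In spleen they are 306 counts in 5 stimulated and 2609 counts in 5 unstimulated libraries. The call rests on that count of 1, and the gene could not be tested with at least 10 counts in every library.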

How the results depend on the processing

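No paired analysis was possible because each replicate number in the titles belongs to a single library, so no groups share a number. Titles of all 10 spleen libraries and of stimulated aged female brain replicates 26 and 27 are written without hyphens and the others with them, so title form and tissue cannot be told apart. Of 656 log2 fold changes recomputed under other settings, 573 kept their direction and their side of the threshold, 37 lost and 37 gained a call, and 9 changed sign. Of 743 with 1 library left out, 683 kept both, 35 lost and 17 gained a call, and 8 changed sign. Unless the cause is named, it was not tested.

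For unstimulated brain over spleen, 1615 genes were called with limma voom, 1677 without a count filter and 245 with at least 10 counts in every library, and 0 members without a filter, with all 35 libraries and with 10 counts in every library. For stimulated brain over spleen, 143 genes and 0 members were called with 10 counts in every library, where fewer genes are tested. Members numbered 2 with DESeq2, 4 with limma voom and 2 with all 35 libraries. For age, DESeq2 called 72 genes, no filter 25, all 35 libraries 1 and 10 counts in every library 1. For sex without stimulation, the counts were 6 with DESeq2 size factors, 24 with DESeq2, 44 with limma voom, 29 without a filter, 2 on unscaled totals and 0 with 10 counts in every library. For sex with stimulation they were 90 with DESeq2, 21 without a filter, 23 with a mean of 1 CPM, and 2560 genes and 2 members with all 35 libraries.

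For stimulation in spleen, all 35 libraries gave 53 genes and 0 members, and unscaled totals 4900 genes and 8 members. In male brain, all 35 libraries gave 5018 genes and 5 members, and 10 counts in every library 103 genes and 0 members. DESeq2 gave 3 members there, limma voom 7 and unscaled totals 2. In female brain, DESeq2 gave 878 genes, limma voom 1360, no filter 704, a mean of 1 CPM 99, titles with hyphens only 135 and 10 counts in every library 142. All 35 libraries gave 2549 genes and 4 members there, and unscaled totals 5 members. For brain against spleen responses, limma voom gave 2770 genes and 5 members, and 10 counts in every library 161 genes and 0 members. DESeq2 and unscaled totals gave 2 members each. For female against male responses, DESeq2 size factors gave 120 genes, DESeq2 1550 genes and 1 member, limma voom 46, no filter 737, all 35 libraries 2154, unscaled totals 103 and 10 counts in every library 0.

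In unstimulated brain over spleen, the sign changed for Itga4 with all 35 libraries (0.013), and on unscaled totals and with 10 counts in every library for Itgal (-0.50 and -0.32), Itgb2 (-0.29 and -0.11) and Itgb7 (-0.18 and -0.0041). Selplg in female brain became 0.0096 without mitochondrial genes, and Rasgrp1 in spleen -0.20 on unscaled totals.

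With 1 library left out, members called ranged over 0 to 2 for unstimulated and 1 to 3 for stimulated brain over spleen, 1 to 3 for male and 0 to 4 for female brain stimulation, 1 to 4 for brain against spleen and 0 to 1 for female against male responses. Genes called ranged over 0 to 1 for age, 4 to 15 for sex unstimulated, 0 to 1 for sex stimulated, 49 to 596 for female brain stimulation and 23 to 377 for female against male responses. Log2 fold changes that changed sign ranged over -0.059 to 1.70 (Itgae) and -0.0014 to 0.13 (Itgal) for unstimulated brain over spleen, -1.39 to 1.60 (Itgae) for age, -0.35 to 0.13 (Selplg) for female brain stimulation and -9.21 to 1.93 (Itgae) for female against male responses. Low counts limit Itgae and Itga1 in stimulated brain, where 1 count is the whole signal of a group.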

Other observations

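RSEM gives each gene a length that weights its isoforms by their estimated use, and for some members this length differed between libraries. Over libraries with at least 50 counts of the gene, Itgb1 had a length of 1044 to 3614 bases in unstimulated aged male brain and 1225 to 2508 bases in aged female brain. It had 979 to 3069 bases in young male brain. In spleen it had 1680 to 2768 bases stimulated and 2218 to 2985 bases unstimulated. Itga4 had 2329 to 5573 bases in unstimulated aged female brain and 2376 to 3444 bases in aged male brain, against 3132 to 3359 bases in unstimulated spleen. Its length was 9767 bases in stimulated aged male brain replicate 20, the library with 1046.5 CPM of Itga4. Itga1 and Selplg had 1 length in every such library, 5984 and 2604 bases. The TPM of Itgb1 and Itga4 therefore holds an estimate of isoform use as well as counts, and CPM does not.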
